A study of Mus musculus with 36 samples.

Results

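The crystal-by-cyclodextrin interaction in macrophages without liver X receptors is the difference between 2 effects of cyclodextrin (CD), the effect in cells loaded with cholesterol crystals minus the effect in cells without crystals. A positive value means that CD raised a gene more, or lowered it less, in loaded cells, and a negative value means the opposite. The arrays were chosen by their group labels, 16 of 36 arrays in the series, and every gene that passed the detection filter was tested, 14415 in all. The other 20 arrays are the same 4 treatments in wild-type (wt) cells, used below for the same contrast.

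The cells were macrophages grown from bone marrow with M-CSF, from C57BL/6 mice aged 2 to 5 months. All 16 arrays came from mice lacking both LXRα and LXRβ (double knockout, dko), so no group of this contrast carries the receptors. The first group received crystals for 3 h and, after excess crystals were washed off, 10 mM CD for 4 h (CD_crystals_DKO-LXR). The second received the crystals without CD (none_crystals_DKO-LXR), the third CD without crystals (CD_none_DKO-LXR), and the fourth neither (none_none_DKO-LXR), with 4 arrays each. Within a group the arrays carry the numbers 6 to 9, and what a number stands for (mouse, culture or day) is not stated. The p-values therefore refer to array-to-array spread, part of which may be technical. The study asked whether CD changes macrophage transcription through LXR.

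Macrophages take up cholesterol crystals into lysosomes, where they dissolve slowly and feed cholesterol into cell membranes. CD is a ring of sugars with a greasy cavity that can carry cholesterol out of or into membranes. When cholesterol in the endoplasmic reticulum is low, the transcription factor SREBP2 is released from that membrane and turns on the enzymes of cholesterol synthesis, and when it is high the protein INSIG1 holds SREBP2 back. LXRs work on the other arm: they sense oxidised cholesterol and switch on exporters such as ABCA1 and ABCG1.

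On the arrays, the median intensity ran from 83.5 to 108 before normalization, and 15567 to 17649 probes were detected per array at a detection p under 0.05. Levels are normalized log2 intensity, and differences are on the same log2 scale. Of 15 macrophage identity genes all 15 were measured, and 13 to 15 of them were detected on all 4 arrays of a group. Of 8 T cell markers 1 was measured, Lck, detected on 9 of the 16 arrays, and of 8 dendritic cell markers 2 were measured, Ccr7 and Siglech, detected on 1 and 2 arrays. All 10 stromal markers were measured and 9 were detected on all 4 arrays of every group, with summed levels of 76.0 to 84.9 in CD_crystals, 75.9 to 87.2 in none_crystals, 75.3 to 86.3 in CD_none and 78.3 to 87.5 in none_none, and their interaction had a median of 0.14. Of 10 neutrophil, 6 B cell and 7 osteoclast markers 5, 3 and 5 were measured, with interaction medians of 0.15, -0.10 and 0.06. The part of these markers in the results below was not tested. In such bulk RNA, fewer cells of a type and less RNA per cell cannot be told apart. The probes for Nr1h3 (LXRα) and Nr1h2 (LXRβ) averaged 10.22 and 9.25 over dko arrays, against 10.15 and 8.87 over wt arrays. Since the sources do not place these probes inside or outside the deleted part of either gene, they check nothing about the genotype.

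Each dko group held 2 arrays with high and 2 with low Xist, the RNA made from the inactive X chromosome of female cells. Xist read between 10.34 and 10.64 on the high arrays and between 4.19 and 4.28 on the low arrays, and the Y-linked gene Eif2s3y read 4.18 to 4.61 on the high arrays and 9.0 to 9.8 on the low arrays. The class did not follow the labels' numbers: number 6 was low in CD_crystals and none_crystals and high in CD_none and none_none. Each of the numbers 6 to 9 held arrays of both classes. If the class is the sex of the mouse, arrays sharing a number cannot all come from the same mouse. The labels give no sex. The first principal component, which held 45.3% of the variance, followed the Xist class, and so did the inflammatory genes described below. The effect of CD differed between high- and low-Xist arrays (high minus low) in 185 genes in loaded cells and in 251 genes in unloaded cells, by limma at an adjusted p under 0.05. The interaction itself differed between the classes in 0 genes, with 342 at an unadjusted p under 0.05. Interaction values within each class are therefore given beside the main results.

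No gene passed the test for the interaction. Limma called 0 of 14415 genes (0.00%) at a Benjamini-Hochberg adjusted p under 0.05, and the smallest adjusted p was 1. At an unadjusted p under 0.05 there were 265 genes (1.84%), of which 128 had positive (0.888%) and 137 negative values (0.950%). The median interaction over all genes was 0.007. The precision set a bound on what could be seen: the standard error (SE) of a gene's interaction had a median of 0.244, and the 95% interval lay wholly within 1 log2 unit of 0 for 12327 genes (85.5%) and within 0.5 for 3403. The interaction exceeded 1 in size in 8 genes, 4 of them at an unadjusted p under 0.05. Across the other settings tried the count stayed at 0, with 1 exception on the high-Xist arrays alone, where Msh5, a meiotic member of the mismatch repair family, was called at 1.28 (SE 0.21, limma adjusted p = 0.0248). Msh5 was named after its value was seen. The smallest limma adjusted p was 0.0831 on the low-Xist arrays alone and 0.268 with a mean for each group and Xist class.

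The cholesterol synthesis and uptake list had the most negative interaction median of the lists described here. All lists and members were chosen with earlier results of these data known. Of the 24 genes listed for cholesterol synthesis and uptake, 22 were measured. Their interaction ran from -1.05 to 0.01 with a median of -0.65, 21 of 22 values were negative, and 7 had an unadjusted p under 0.05. All 7 were negative, against 0.950% of all genes. None of the 22 passed the adjusted test. The promoters of the enzymes Mvd, Acat2 and Lss are shown because these are the cholesterol genes with the most negative interaction. They come from RefSeq (GRCm38.p6) and run from upstream of the gene's start to shortly past it, read 5′ to 3′ on the gene's strand. Capitals mark CCAAT, the box bound by NF-Y, a known partner of SREBP2, and CACNCCAC, a core of sterol response elements, either on the strand shown or as its reverse complement.
Mvd, chr8:122443373-122443672, minus strand: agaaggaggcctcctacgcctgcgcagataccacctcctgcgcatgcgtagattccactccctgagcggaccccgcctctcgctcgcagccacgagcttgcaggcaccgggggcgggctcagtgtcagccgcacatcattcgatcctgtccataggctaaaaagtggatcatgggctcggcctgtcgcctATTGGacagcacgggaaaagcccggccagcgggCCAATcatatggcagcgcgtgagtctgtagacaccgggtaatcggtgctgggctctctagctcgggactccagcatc
Acat2, chr17:12960676-12960975, minus strand: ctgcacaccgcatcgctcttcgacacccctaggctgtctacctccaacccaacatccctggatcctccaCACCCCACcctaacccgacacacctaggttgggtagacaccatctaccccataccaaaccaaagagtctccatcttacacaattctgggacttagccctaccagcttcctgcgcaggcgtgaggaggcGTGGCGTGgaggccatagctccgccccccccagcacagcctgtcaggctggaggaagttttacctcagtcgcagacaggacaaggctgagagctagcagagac
Lss, chr10:76531355-76531654, plus strand: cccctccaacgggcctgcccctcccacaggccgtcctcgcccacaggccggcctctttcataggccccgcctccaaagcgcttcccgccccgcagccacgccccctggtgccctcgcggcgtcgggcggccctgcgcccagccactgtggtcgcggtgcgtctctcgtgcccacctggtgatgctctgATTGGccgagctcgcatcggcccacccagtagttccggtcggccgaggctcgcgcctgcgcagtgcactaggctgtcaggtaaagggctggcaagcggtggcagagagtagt

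Promoter windows were found for 17 of the 24 listed cholesterol genes, 20 windows in all. CCAAT occurred in 16 of these 20 windows, against 37.4% of 32851 windows of the same length. CACNCCAC occurred in 3 of the 20, those of Acat2, Hmgcs1 and Insig1, against 6.24% of all windows. The Mvd window held 2 matches to CCAAT, that of Lss held 1 and that of Acat2 held 0 with 2 matches to CACNCCAC. Neither pattern contains the other, and a match is a description of the sequence alone.

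Mvd encodes mevalonate diphosphate decarboxylase, which makes the isoprene unit of sterols. It read 6.36, 7.41, 6.96 and 8.0 on the CD_crystals arrays (numbers 6 to 9), and 6.72, 6.82, 6.82 and 6.88 on the none_crystals arrays. Without crystals it read 9.39, 9.16, 9.35 and 9.51 on the CD_none arrays, and 8.2, 7.83, 7.76 and 7.95 on the none_none arrays. Every CD array lay above every untreated array when no crystals were given, while with crystals the CD arrays spread on both sides of the tight group without CD. In CD_crystals both high-Xist arrays lay above both low-Xist arrays. The CD effect was 0.37 in loaded cells (SE 0.24, adjusted p = 0.621) and 1.42 in unloaded cells (SE 0.24, adjusted p = 0.00217). The interaction was -1.05 (SE 0.34, 95% interval -1.73 to -0.36, unadjusted p = 0.00388, adjusted p = 1). Within the high-Xist arrays it was -0.44 and within the low-Xist arrays -1.66.

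Acat2, the cytosolic thiolase that joins acetyl-CoA units ahead of the mevalonate pathway, had the same form. Its level was 6.33, 7.26, 6.89 and 7.62 in CD_crystals and 6.95, 6.93, 6.57 and 6.45 in none_crystals. In the unloaded groups it was 9.09, 9.04, 8.67 and 9.43 in CD_none and 7.89, 7.46, 8.16 and 7.32 in none_none. The loaded groups overlapped and the unloaded groups did not. Again the high-Xist arrays lay above the low-Xist arrays in CD_crystals. CD changed it by 0.30 in loaded cells (SE 0.22, adjusted p = 0.693), against a rise of 1.35 in unloaded cells (SE 0.22, adjusted p = 0.00193), an interaction of -1.05 (SE 0.31, 95% interval -1.68 to -0.42, unadjusted p = 0.00194, adjusted p = 1). The value was -0.34 on high-Xist and -1.75 on low-Xist arrays.

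Lss, lanosterol synthase, folds squalene epoxide into the first sterol of the pathway. It read 6.69, 7.94, 7.39 and 8.16 in CD_crystals, against 7.37, 7.41, 7.47 and 7.27 in none_crystals. The unloaded arrays read 9.68, 9.49, 9.48 and 9.76 with CD and 8.62, 8.36, 8.69 and 8.56 without. As for Mvd, the unloaded groups did not overlap and the loaded groups did, and in CD_crystals the high-Xist arrays lay above the low-Xist arrays. The interaction was -0.88 (SE 0.34, unadjusted p = 0.0142), built from 0.17 in loaded cells (SE 0.24, adjusted p = 0.909) and a rise of 1.04 in unloaded cells (SE 0.24, adjusted p = 0.0169). On high-Xist arrays it was -0.31 and on low-Xist arrays -1.45.

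**Figure D1:**
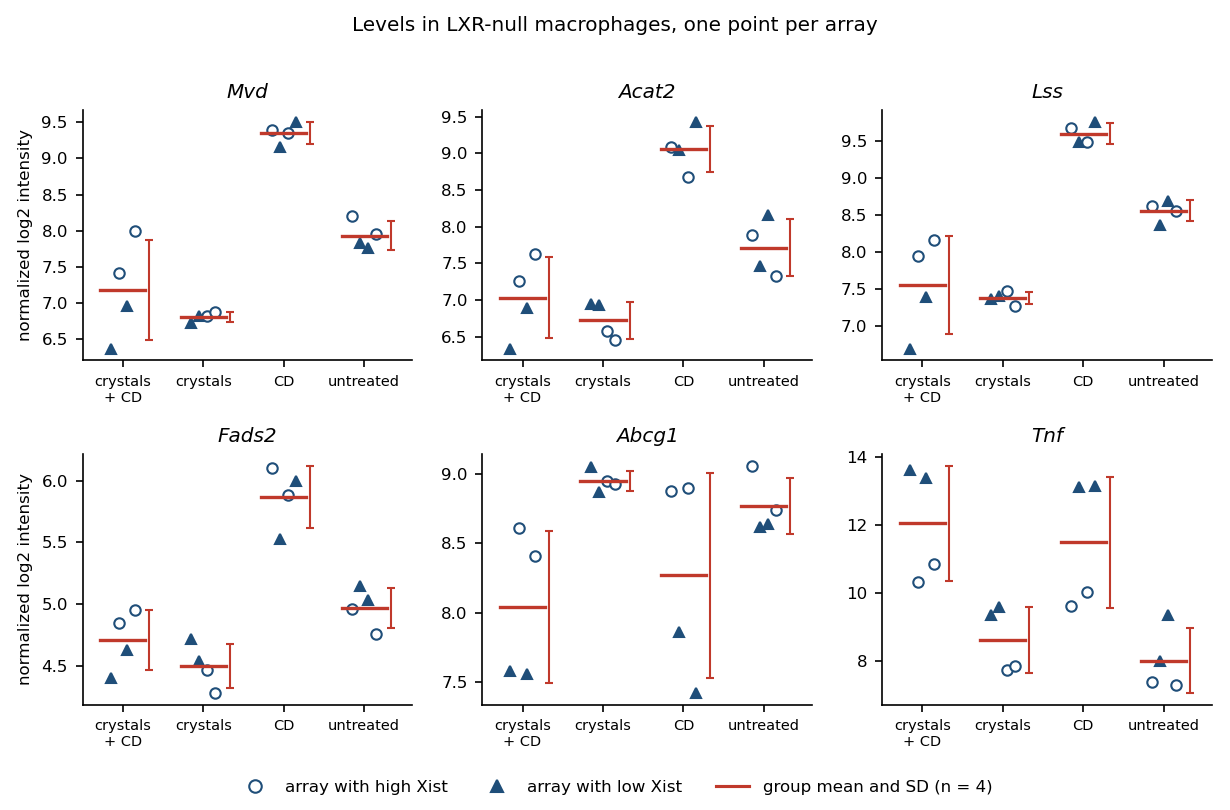
Normalized log2 intensity of 6 genes on the 16 dko arrays, in the order crystals with CD, crystals, CD and untreated. Open circles are arrays with high Xist, filled triangles arrays with low Xist, red lines group means and red bars the SD (n = 4). Mvd, Acat2, Lss and Fads2 are highest with CD alone, where all 4 arrays lie above the untreated arrays. Tnf and Abcg1 separate by Xist class in both groups given CD. Mvd, Acat2, Lss and Fads2 separate by class in crystals with CD, where the high-Xist arrays are higher, but not with CD alone.

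The rest of the pathway can be read in order. The mevalonate kinases Mvk and Pmvk had an interaction of -0.37 and -0.38. Idi1 and Fdps, which isomerise and join isoprene units, had -0.54 and -0.43. Sqle, which epoxidises squalene, had -0.61 (SE 0.29, unadjusted p = 0.0426). After lanosterol, Cyp51 had -0.72 (SE 0.37), Msmo1 -0.76 (SE 0.46), Nsdhl -0.60 (SE 0.28), Hsd17b7 -0.65 (SE 0.32), Sc5d -0.64 (SE 0.24) and Dhcr7 -0.68 (SE 0.35). Most of these values were larger in size on low-Xist arrays. On high- and low-Xist arrays Cyp51 had -0.01 and -1.44, Sqle 0 and -1.22, Fdps 0.12 and -0.99, Msmo1 -0.27 and -1.24, Hsd17b7 -0.25 and -1.06, and Sc5d -0.58 and -0.70. The late steps Ebp and Tm7sf2 were nearer to 0, at -0.05 and 0.01. Hmgcs1 and Fdft1 were not tested here.

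Among the regulators and the carriers, Stard4, which moves sterol between membranes, had an interaction of -0.75 (SE 0.39), with -0.04 on high-Xist and -1.46 on low-Xist arrays. Srebf2, the gene of SREBP2 itself, had -0.14 (SE 0.21, 95% interval -0.57 to 0.29). It read 6.36, 6.99, 6.91 and 6.99 in CD_crystals, 6.40, 6.52, 6.41 and 6.65 in none_crystals, 8.16, 8.38, 8.21 and 8.11 in CD_none and 7.72, 7.80, 7.80 and 7.72 in none_none. All 8 loaded arrays lay below all 8 unloaded ones. On its brightest probe, the level of Insig1 went with the Xist class more than with treatment. In CD_none it read 5.64 and 5.88 on high-Xist arrays and 10.11 and 10.05 on low-Xist arrays. Its interaction on that probe was -0.73 (SE 1.08), with -0.12 on high-Xist and -1.35 on low-Xist arrays. Further Insig1 probes of similar brightness gave -1 (limma unadjusted p = 0.0522) and -0.65 (limma unadjusted p = 0.24).

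The 4 single comparisons that make up the interaction place these values. CD in loaded cells called 0 of the 22 genes, with a median of 0.09, against 1.80% of all genes called. That median was 0.48 on high-Xist and -0.26 on low-Xist arrays, against 0.55 and 0.76 in unloaded cells. CD in unloaded cells raised 5 of the 22 and lowered 0, against 1.71% of all genes called and 1.13% raised, with a median of 0.61. They were Mvd, Acat2 and Lss, above, Hsd17b7 at 0.99 (adjusted p = 0.0169) and Pmvk at 0.68 (adjusted p = 0.0467). An effect that passes in unloaded cells and not in loaded cells is not by itself a difference, and the test of that difference is the interaction, which called none. Crystals lowered 18 of 22 in cells given CD, against 0.333% of all genes lowered, with a median of -1.72. Without CD crystals lowered 13 of 22, against 0.180%, with a median of -1.09.

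By array, the median over the 22 genes of the difference from the untreated mean was -1.37, -0.69, -1.02 and -0.92 on the CD_crystals arrays and -1.02, -1.07, -1.19 and -1.15 on the none_crystals arrays. On the CD_none arrays it was 0.58, 0.90, 0.45 and 0.98, and on the none_none arrays 0.05, 0.06, 0.08 and -0.21. The loaded groups overlapped, and the unloaded groups did not. Within CD_crystals the high-Xist arrays lay above the low-Xist arrays, and within CD_none the low-Xist arrays lay above the high-Xist arrays. Single members could differ from the median, as Ebp did with a CD effect of -0.25 in unloaded cells. The list's interaction median was -0.17 on high-Xist arrays and -1.03 on low-Xist arrays, and -0.57 with the slide as a block. It was -0.62 on slide 6, the slide that held all 4 groups with 1 array each. On that slide both loaded arrays had high Xist and both unloaded arrays low Xist. Crystal loading and Xist class therefore cannot be told apart in the slide 6 value. The part of the Xist class in this result was not tested beyond these values, and for none of the 22 genes was the class difference of the interaction called.

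**Figure D2:**
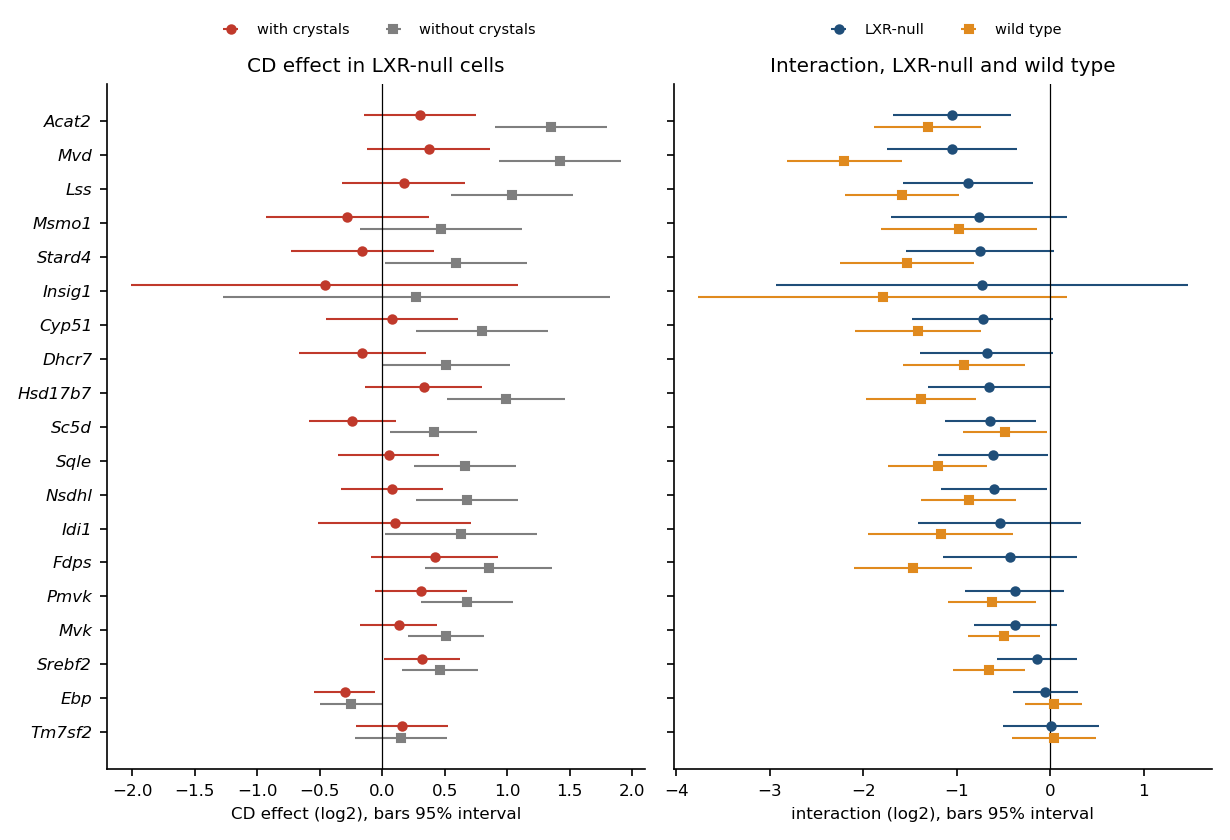
Left, the CD effect on cholesterol synthesis and uptake genes in dko cells with crystals (red circles) and without (grey squares). Right, the interaction in dko (blue circles) and in wt cells (orange squares), with bars as 95% intervals of the log2 values. The loaded effects lie around 0 and the unloaded effects mostly to the right of them, with medians over all 22 measured genes of 0.09 and 0.61. By Xist class the loaded median was 0.48 on high and -0.26 on low arrays, and the unloaded median 0.55 and 0.76.

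Genes that make and desaturate fatty acids, which SREBP1 and SREBP2 share as targets, were measured in 14 of 18 cases. Their interaction ran from -0.70 to 0.08 with a median of -0.34. 3 of the 14 had an unadjusted p under 0.05, Fads2, Aacs and Acly, all negative, and 0 passed the adjusted test. CD called 0 of the 14 in loaded cells and raised 3 in unloaded cells, Elovl6 (1.07, adjusted p = 0.025), Fads2 and Aacs. Of all genes 1.84% had an unadjusted interaction p under 0.05, and CD called 1.80% in loaded cells and raised 1.13% in unloaded cells. Crystals lowered 5 of the 14 in cells given CD, against 0.333% of all genes, and 2 without CD, against 0.180%.

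Fads2, the delta-6 desaturase, read 4.40, 4.85, 4.63 and 4.95 in CD_crystals and 4.72, 4.54, 4.47 and 4.28 in none_crystals, where it was detected on 2 and 1 of the 4 arrays. It read 6.10, 5.53, 5.88 and 6.00 in CD_none and 4.96, 5.15, 5.03 and 4.76 in none_none. The unloaded groups did not overlap, and the loaded groups lay near background. The interaction was -0.70 (SE 0.24, unadjusted p = 0.00709), with -0.61 on high-Xist and -0.78 on low-Xist arrays, so it was of similar size in both classes. A second Fads2 probe gave -0.27 (unadjusted p = 0.217).

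Aacs encodes acetoacetyl-CoA synthetase, which feeds ketone bodies into sterol and fatty acid synthesis. Its level was 8.63, 9.56, 8.99 and 9.85 in CD_crystals, 8.86, 9.04, 9.18 and 9.19 in none_crystals, 11.05, 10.87, 10.84 and 11.08 in CD_none and 10.30, 10.06, 9.96 and 9.98 in none_none. CD arrays lay above untreated arrays in the unloaded groups alone, and in CD_crystals the high-Xist arrays lay above the low-Xist arrays. CD changed it by 0.19 in loaded cells (SE 0.17, adjusted p = 0.784), against a rise of 0.88 in unloaded cells (SE 0.17, adjusted p = 0.0039). The interaction was -0.69 (SE 0.23, unadjusted p = 0.00568), with -0.28 on high-Xist and -1.11 on low-Xist arrays. Acly, which makes cytosolic acetyl-CoA from citrate, had -0.42 (SE 0.17, unadjusted p = 0.016), and the desaturases Scd1 and Scd2 had -0.50 (SE 0.42) and -0.48 (SE 0.47). Scd2 had 0.20 on high-Xist and -1.17 on low-Xist arrays.

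The LXR target list asks what the contrast looks like for genes that these cells can no longer switch on through LXR. Of 22 genes 21 were measured, their interaction ran from -0.72 to 0.36 with a median of -0.02, and 1 had an unadjusted p under 0.05, against 1.84% of all genes. It was Acsl3, an acyl-CoA synthetase of lipid droplets, at -0.72 (SE 0.25, unadjusted p = 0.00715), for which a second, dim probe gave 0.09. Acsl3 fell with crystals, with effects of -1.78 in cells given CD and -1.05 without CD. In the single comparisons CD called 2 of the 21 in loaded cells, Nr1h3 (0.96, adjusted p = 0.0273) and Mertk (-1.44, adjusted p = 0.022), against 1.80% of all genes. It called 2 in unloaded cells, Tgm2 (-0.72, adjusted p = 0.0169) and Mertk (-1.38, adjusted p = 0.0251), against 1.71%. Lpcat3, a phospholipid-remodelling enzyme, had -0.29 (SE 0.23) and Tgm2, a transglutaminase, 0.34 (SE 0.23).

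Abcg1, the exporter of cholesterol to HDL, read 7.58, 8.61, 7.56 and 8.41 in CD_crystals and 9.05, 8.87, 8.95 and 8.93 in none_crystals. In unloaded cells it read 8.88, 7.86, 8.90 and 7.42 with CD and 9.06, 8.62, 8.64 and 8.74 without. In both groups given CD the high-Xist arrays lay above the low-Xist arrays. The CD effect was -0.91 in loaded cells (SE 0.29, adjusted p = 0.105) and -0.50 in unloaded cells (SE 0.29, adjusted p = 0.519), and the interaction was -0.41 (SE 0.41, 95% interval -1.25 to 0.42). Abca1, the exporter to lipid-poor apolipoprotein A-I, was near background, with an interaction of -0.02 (SE 0.25), and Srebf1 and Mylip had -0.12 and -0.19.

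The same contrast in the 20 wt arrays, which share no array with the dko ones, called 7 genes (0.0486% of 14415), 1 positive (0.00694%) and 6 negative (0.0416%). The positive one was Abcg1 at 2.14 (SE 0.37, adjusted p = 0.00495). The negative ones were Mvd at -2.20 (SE 0.30), Aacs at -1.44 (SE 0.21), Lss at -1.58 (SE 0.30), and 3 entries under the array table's own names, 8030402P03RIK at -1.85 (SE 0.29), LOC100040592, described there as similar to Hmgcs1 protein, at -1.51 (SE 0.26), and LOC666559, described as similar to farnesyl pyrophosphate synthase, at -1.56 (SE 0.28). In dko cells the 6 negative genes were also negative: Mvd at -1.05, Aacs at -0.69, Lss at -0.88, 8030402P03RIK at -1.21 (SE 0.33), LOC100040592 at -0.82 (SE 0.29) and LOC666559 at -0.87 (SE 0.31). On high- and low-Xist dko arrays 8030402P03RIK had -0.56 and -1.85, LOC100040592 -0.12 and -1.52, and LOC666559 -0.5 and -1.23. Whether the probes of these look-alike entries also bind transcripts of the genes they resemble was not tested. Most wt arrays lay on slides without dko arrays. The wt arrays given CD with and without crystals lay largely on different slides. Slide is therefore partly mixed with genotype and, in wt cells, with crystal loading. The part of the slide was not tested beyond the slide block.

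The difference between genotypes was tested directly, as the dko interaction minus the wt interaction, and limma called 0 genes (0.00%). Before adjustment 204 genes had a p under 0.05, and the smallest adjusted p, 0.596, belonged to Abcg1 at -2.56 (SE 0.55). It was called, as the one gene, with array weights at -2.76 (adjusted p = 0.0437), with the Xist class as a block at -2.56 (adjusted p = 0.0239) and with a mean for each group and Xist class at -2.56 (adjusted p = 0.00568). Mvd differed by 1.15 (SE 0.45, unadjusted p = 0.0154, adjusted p = 1) and Aacs by 0.74 (SE 0.31, unadjusted p = 0.0245, adjusted p = 1). The cholesterol list had a median of -0.65 in dko and -1.18 in wt, and the median of the members' genotype difference was 0.51. On high- and low-Xist arrays the dko median was -0.17 and -1.03, and the wt median -0.9 and -1.42. The genotype difference had a median of 0.67 and 0.42 by class, and 0.73 with the slide block. Each wt group had 5 arrays, so its Xist classes were unequal in number. The part of the class in this difference was not tested beyond these values. In the fatty acid list the medians were -0.34 in dko and -0.34 in wt. The wt calls depended on the setting, with 0 under median scaling and 0 with the deposited matrix values. They numbered 12 with the replicate block, 12 with the slide block, 16 with the Xist block, 50 with class group means, 32 on high-Xist and 19 on low-Xist arrays alone, and 13 at an offset of 50, where none was positive and Abcg1 was therefore not called.

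CD changed many more genes within each crystal setting than the interaction did. It called 260 genes in loaded cells, 183 up and 77 down, and 247 in unloaded cells, 163 up and 84 down. These comparisons share no array, and 136 genes were called in both, all in the same direction, which is 52.3% of the loaded list and 55.1% of the unloaded list. Under median scaling the counts were 2 (2 up, 0 down) and 34 (32 up, 2 down), and with the deposited matrix values 0 and 0, with 322 and 384 genes at an unadjusted p under 0.05. Single arrays moved them as well, since the loaded count was 452 without the CD_crystals array 7, 34 without CD_crystals array 8, 41 without CD_crystals array 6, and 67, 90, 128 and 130 without the none_crystals arrays 6, 7, 8 and 9. The unloaded count was 424 and 376 without the CD_none arrays 6 and 8, 82 and 59 without CD_none arrays 7 and 9, and 136, 101 and 131 without the none_none arrays 6, 7 and 8. The largest counts came from leaving out high-Xist arrays given CD.

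**Figure D3:**
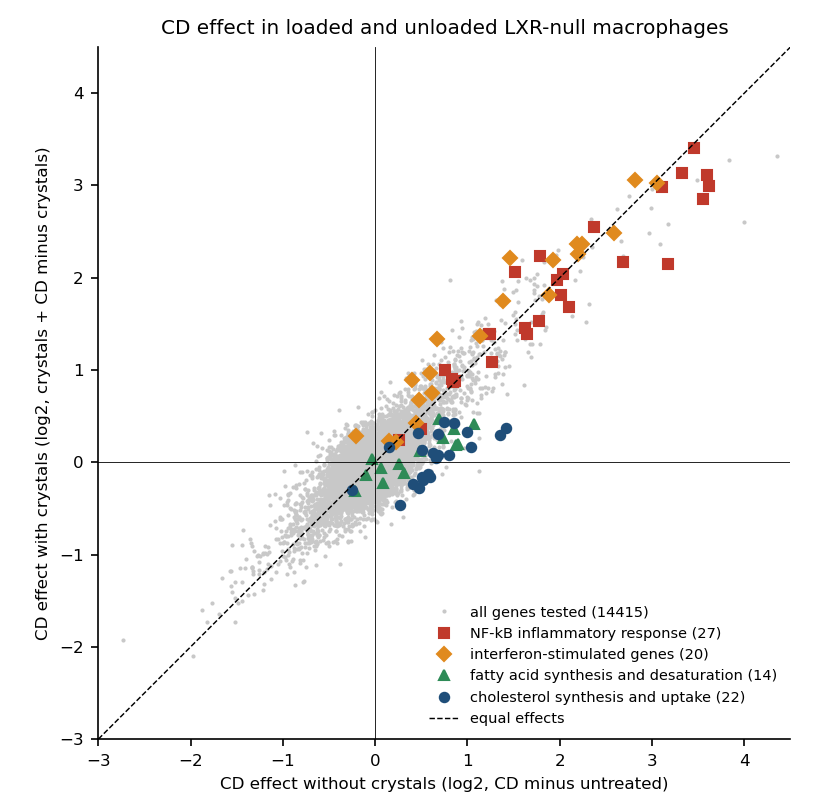
The log2 CD effect on each of 14415 genes in dko cells with crystals (vertical) against the effect without crystals (horizontal), with 4 gene lists in colour and equal effects on the dashed line. NF-kB and interferon genes lie along the line, and the cholesterol synthesis genes below it. Their medians over both Xist classes are 0.09 with crystals and 0.61 without.

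Inflammatory genes rose with CD in both crystal settings. Of 27 measured NF-kB response genes CD raised 12 in loaded cells, against 1.27% of all genes raised, and 12 in unloaded cells, against 1.13%, with medians of 1.81 and 1.79. Their interaction had a median of -0.13, ran from -1.02 to 0.54, and was at an unadjusted p under 0.05 in 0 genes. The sign of that median changed with the arrays used. It was 0.72 without the dko arrays numbered 7, -0.61 without those numbered 8, and -1.36 on slide 6. In each of these sets the Xist classes were unequal between the groups, so these medians also compare classes. Within the classes the median was 0.04 on high-Xist and -0.23 on low-Xist arrays. The CD effects (loaded, unloaded) had medians of 1.1 and 1.04 on high-Xist arrays and 2.67 and 2.53 on low-Xist arrays. Tnf, the cytokine TNF, read 13.62, 10.33, 13.38 and 10.87 in CD_crystals and 9.36, 9.59, 7.75 and 7.86 in none_crystals. In unloaded cells it read 9.62, 13.12, 10.04 and 13.16 with CD and 7.41, 8.0, 9.37 and 7.31 without. CD arrays lay above arrays without CD in both settings, and the arrays above 13 were the low-Xist ones. Tnf rose by 3.41 in loaded cells (SE 0.88, adjusted p = 0.0366) and by 3.46 in unloaded cells (SE 0.88, adjusted p = 0.0307), and the interaction was -0.06 with a 95% interval of -2.58 to 2.47, so differences of that size either way were within the error.

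Other inflammatory genes had the same wide intervals. The chemokine Ccl5 rose by 3.13 with CD in loaded cells (SE 0.63, adjusted p = 0.00733) and by 3.32 in unloaded cells (SE 0.63, adjusted p = 0.00435), with an interaction of -0.19 (SE 0.90). Cxcl10, a chemokine for T cells, rose by 3.11 (SE 0.71, adjusted p = 0.0203) and 3.6 (SE 0.71, adjusted p = 0.0048). Il1b, the precursor of IL-1β, had CD effects of 2.15 and 3.17 that did not pass (adjusted p = 0.581 and 0.262) and an interaction of -1.02 (SE 1.83). Acod1, the enzyme that makes itaconate, rose by 3.32 in loaded cells (SE 0.84, adjusted p = 0.0324) and 4.35 in unloaded cells (SE 0.84, adjusted p = 0.00435), with an interaction of -1.02 (SE 1.18). Of 11 inflammasome genes 1 rose with CD in each setting, Casp4, the caspase that senses intracellular endotoxin, against 1.27% and 1.13% of all genes raised. Their interaction median was 0.12, and ran from -0.20 without the dko arrays numbered 8 to 0.34 without those numbered 9. On high- and low-Xist arrays it was 0.14 and 0.18.

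Interferon-stimulated genes were measured in 20 of 24 cases, and CD raised 10 of them in loaded cells, against 1.27% of all genes, and 8 in unloaded cells, against 1.13%, with medians of 1.56 and 1.26. Rsad2, the antiviral enzyme viperin, read 10.72, 8.75, 10.75 and 10.24 in CD_crystals, 7.53, 7.19, 6.58 and 7.03 in none_crystals, 8.43, 10.07, 9.05 and 9.98 in CD_none and 5.59, 6.60, 6.91 and 6.22 in none_none. Neither pair of groups overlapped. It rose by 3.03 in loaded cells (SE 0.50, adjusted p = 0.00317) and by 3.05 in unloaded cells (SE 0.50, adjusted p = 0.00193), and the interaction was -0.02 (SE 0.70). The list's interaction median was 0.18, with 15 of 20 values positive and 0 at an unadjusted p under 0.05. It ran from -0.19 without the dko arrays numbered 8 to 0.60 without those numbered 7. On high- and low-Xist arrays it was 0.27 and 0.14. The interferon regulator Irf7 had 0.67 (SE 0.56).

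**Figure D4:**
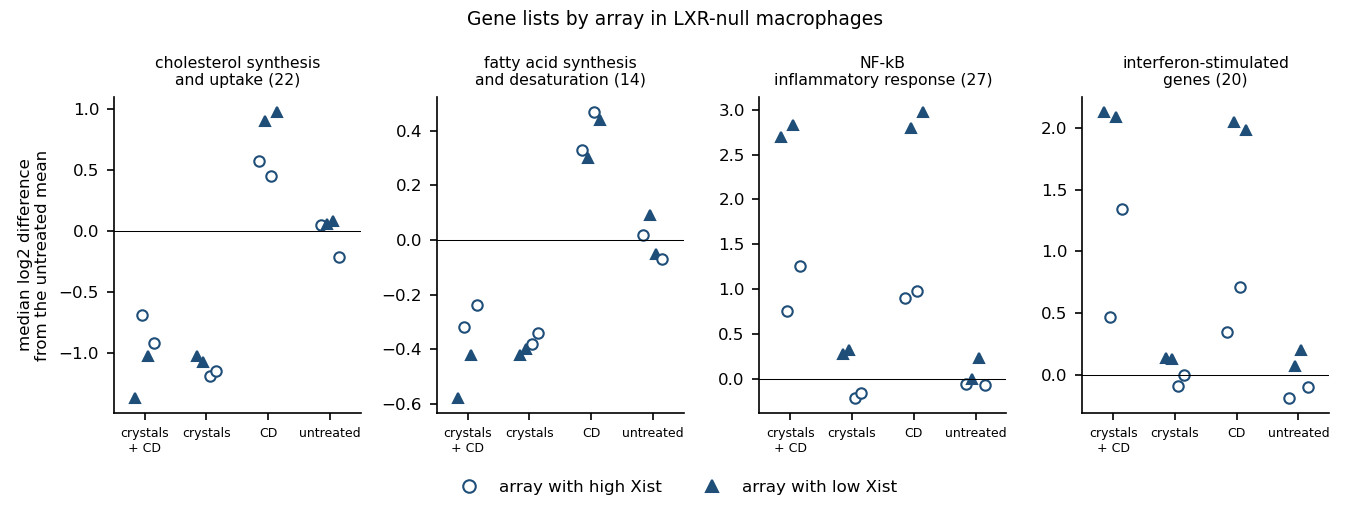
Each point is 1 dko array, placed at the median over a list's genes of the log2 difference from the untreated dko mean, with open circles for high Xist and filled triangles for low Xist. In the cholesterol list the CD arrays without crystals stand at 0.45 to 0.98 and both loaded groups at -1.37 to -0.69, while in the NF-kB list the arrays given CD stand at 2.70 to 2.98 where Xist was low and at 0.76 to 1.26 where it was high.

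Crystals raised 2 of the 23 unfolded protein and integrated stress response genes in cells given CD, against 0.139% of all genes raised, and 2 without CD, against 0.236%, with medians of 0.23 and 0.22. Both times they were Ddit3 and Trib3, a pseudokinase induced by CHOP. Crystals called 0 of 16 NRF2 and 0 of 12 heat shock genes in either setting. Ddit3, the stress transcription factor CHOP, read 9.20, 9.28, 9.12 and 9.58 in CD_crystals, 8.89, 8.89, 8.81 and 9.34 in none_crystals, 7.65, 8.09, 8.06 and 7.90 in CD_none and 7.57, 7.38, 7.05 and 7.90 in none_none. All loaded arrays lay above all unloaded arrays. Crystals raised it by 1.37 in cells given CD (SE 0.21, adjusted p = 0.000187) and by 1.51 in cells without CD (SE 0.21, adjusted p = 0.000202), an interaction of -0.13 (SE 0.30). Kit, the receptor for stem cell factor and 1 of 2 measured erythroid and mast cell markers of 8, rose by 2.14 in cells given CD (SE 0.28, adjusted p = 1.05e-05) and by 2.46 without (SE 0.28, adjusted p = 7.49e-06), with an interaction of -0.33 (SE 0.40). Hbb-b1, the other measured marker of that list, stood at background. In all, crystals called 68 genes in cells given CD, 20 up and 48 down, and 60 without CD, 34 up and 26 down. Under median scaling these were 29 (2 up, 27 down) and 10 (3 up, 7 down), and with the deposited matrix values 17 and 3, all down. The second count was 36 without none_crystals array 7 and 36 without none_none array 8.

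No stress gene was called for the interaction. The 23 unfolded protein and integrated stress response genes had an interaction median of -0.13, from -0.77 to 0.30. Atf4, the master factor of the integrated stress response, had -0.51 (SE 0.28, unadjusted p = 0.074) and Chac1, a glutathione-degrading target, -0.77 (SE 0.66). The 16 NRF2 genes had a median of -0.18, and 1 of them was at an unadjusted p under 0.05, Gclc, the catalytic subunit of glutathione synthesis, at -0.52 (SE 0.24, unadjusted p = 0.0353). It was detected on 2, 4, 4 and 2 of 4 arrays in CD_crystals, none_crystals, CD_none and none_none. Hmox1, haem oxygenase, had -0.76 (SE 0.57). The 12 heat shock genes had a median of -0.06 and the 28 lysosome genes -0.03.

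Among immediate early genes, measured in 15 of 20 cases with a median of 0.05, Klf2 had an interaction of 1.07 (SE 0.52, unadjusted p = 0.0464). KLF2 is a transcription factor that restrains macrophage activation. It read 7.33, 6.94, 7.15 and 7.31 in CD_crystals and 6.51, 6.61, 7.29 and 7.02 in none_crystals, and 6.69, 6.55, 6.99 and 5.78 in CD_none against 7.29, 7.02, 7.20 and 7.46 in none_none. In unloaded cells every CD array lay below every untreated array, and in loaded cells the groups overlapped. Neither CD effect passed, at 0.33 in loaded cells (adjusted p = 0.869) and -0.74 in unloaded cells (adjusted p = 0.394). The interaction was 0.51 on high-Xist and 1.63 on low-Xist arrays.

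For the remaining lists the interaction median was -0.03 for cholesterol storage and transport (17 genes), 0.10 for hypoxia and glycolysis (16), 0.03 for the cell cycle (20), -0.01 for alternative activation (8), -0.06 for scavenger and efferocytosis receptors (15), -0.07 for iron handling and metallothioneins (11), -0.03 for macrophage identity (15) and 0.01 for housekeeping genes (10). None of these 8 lists had a member at an unadjusted p under 0.05. Of the CD-lowered genes, Mertk, the efferocytosis receptor, fell in loaded (-1.44) and in unloaded cells (-1.38), with an interaction of -0.06 (SE 0.47), and Vegfa, the angiogenic factor, fell in loaded (-1.34) and in unloaded cells (-1.56), with 0.22 (SE 0.46). Il10, the anti-inflammatory cytokine, had the largest value among alternative activation genes, 0.65 (SE 0.34, unadjusted p = 0.0642).

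**Figure D5:**
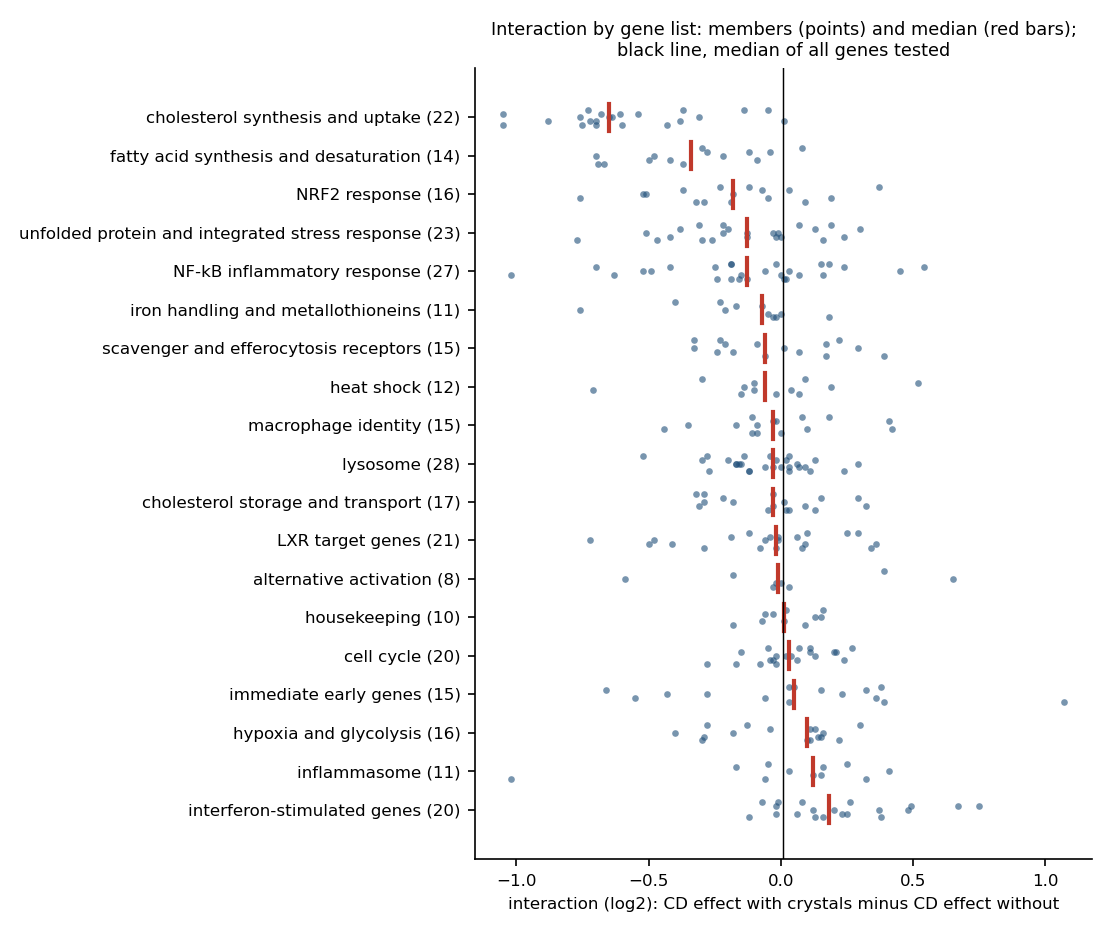
The interaction (log2) of each measured member of 19 gene lists in dko cells, as points, with the list median as a red bar and the median of all 14415 genes, 0.007, as a black line. The cholesterol synthesis list, at -0.65, and the fatty acid list, at -0.34, lie farthest to the left, and the interferon list, at 0.18, farthest to the right.

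Outside the lists, the 10 negative and 10 positive genes with the smallest unadjusted p were mostly dim, and 5 of these 20 were detected on all 16 arrays. On the negative side Catsperg1, a sperm ion channel subunit, had the smallest p of all at -0.54 (SE 0.14, unadjusted p = 0.000664), yet was detected on 0, 1, 3 and 0 of 4 arrays in CD_crystals, none_crystals, CD_none and none_none. 8030402P03RIK, detected on all arrays, followed at -1.21 (SE 0.33, unadjusted p = 0.000803), with -0.56 on high-Xist and -1.85 on low-Xist arrays. It read 5.73, 6.41, 6.19 and 6.78 in CD_crystals, 6.40, 6.42, 6.07 and 6.57 in none_crystals, 8.82, 8.91, 8.39 and 9.16 in CD_none and 7.85, 7.68, 7.58 and 7.69 in none_none, the same form as the cholesterol genes. The others were Hopx at -0.64, LOC434788 at -0.49, Acat2, above, Ankrd33b at -0.72, EG665685 at -0.84, LOC384175 at -0.59, Ccdc121 at -0.53 and Mphosph10, a component of ribosome assembly, at -0.85.

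On the positive side Rab38, a small GTPase of lysosome-related organelles, had 0.96 (SE 0.30, unadjusted p = 0.00288). It read 5.57, 4.47, 5.62 and 4.71 in CD_crystals, 4.26, 4.69, 4.73 and 4.38 in none_crystals, 4.37, 4.64, 4.33 and 4.31 in CD_none and 4.77, 4.91, 4.79 and 4.73 in none_none. The 2 arrays above 5 were the low-Xist arrays with crystals and CD. A second Rab38 probe gave 0.17. Phlpp1, a phosphatase of AKT, was detected on all arrays and had 0.53 (SE 0.17, unadjusted p = 0.00435), and Rtel1, a telomere helicase, also detected on all, 0.57 (SE 0.19, unadjusted p = 0.00482). A second Phlpp1 probe gave 0.67, while further Rtel1 probes of similar brightness gave 0.10 and 0.21. Cd2ap, an actin adaptor, had 0.76 (SE 0.24) and was detected on 11 of the 16 arrays. The others were detected on fewer: Klra17 (0.53) on 4, IL8RA (0.60) on 3, Slc22a13 (0.58) on 2, Olfr571 (0.61) on 3, Zfp78 (0.52) on 5 and Frg1 (0.62) on 6. IL8RA was detected in CD_crystals alone and Klra17 in none_none alone. All 20 had an adjusted p of 1.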

How the data were processed

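RNA from the macrophages was labelled with a TargetAmp Nano-g biotin kit and hybridised to Illumina mouse expression arrays, per the labels' protocols. The authors deposited a non-normalized table with the signal intensity and detection p-value of 45281 probes on 36 arrays, and per the submitters' processing notes Partek was used, with no role or version given. The authors' deposited matrix holds log2 values that match log2 of these intensities to within 5.57e-05, so it is not normalized.

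Intensities were background-corrected, quantile normalized (neqc, offset 16) and tested with limma 3.58.1 in R 4.3.3, with 8 group means over all 36 arrays. Probes detected (p under 0.05) on at least 4 arrays were kept, 21126 in all. A gene was given by its probe with the highest mean, named through RefSeq. Adjusted p-values are Benjamini-Hochberg over 14415 genes, with 0.05 as the threshold. The lists and members were chosen with earlier results of these data known. Named genes were those with the 10 smallest unadjusted p-values in each direction, the 3 smallest of each list, a set of chosen genes and, beyond that rule, other cholesterol and fatty acid genes and those called in wt cells. A few listed genes are not reported here by name but enter the counts and medians. Scripts were tested on simulated data. The number of arrays limits the precision. Whether arrays with the same number pair could not be decided, because the correlations of their deviations followed the Xist class. Among same-number pairs 10 of 24 correlated above 0.1 (range -0.72 to 0.60). Among pairs of the same Xist class 48 of 48 did (0.29 to 0.76), and among pairs of unlike class 0 of 48 (-0.74 to -0.27). The Xist classes were cut at a level of 8 and were added after the data were seen. Slides, 4 of which held dko arrays, were fitted as a block.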

Additional observations from a re-analysis of the deposited data

Results flagged for a closer look

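In 26 of 412 groups of 4 arrays tested, 1 array of the named genes stood apart from the other 3, by a gap to its nearest neighbour, as a share of the whole range, above Dixon's critical value for 4 values. Chance alone flags about 1 in 20 such groups, and no pattern is read from them. Gap ratios are given after each level.

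Among cholesterol, fatty acid and LXR-related genes, Srebf2 was low on CD_crystals array 6 (6.36, others 6.91 to 6.99, ratio 0.866), as was Cyp51 (7.47, others 8.30 to 8.44, ratio 0.858). Scd1 (6.44, others 7.04 to 7.16, ratio 0.836) and Abca1 (4.40, others 4.75 to 4.82, ratio 0.841) were low on none_crystals array 6. LOC666559 was high on none_crystals array 7 (7.23, others 6.90 to 6.94, ratio 0.888). Nr1h3 was low on CD_none array 6 (10.34, others 10.57 to 10.61, ratio 0.835) and high on none_none array 6 (10.02, others 9.73 to 9.76, ratio 0.914).

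Among stress, inflammatory and other listed genes, Ddit3 was high on none_crystals array 9 (9.34, others 8.81 to 8.89, ratio 0.853). Tent5c was high on none_crystals array 7 (8.48, others 8.13 to 8.14, ratio 0.963). Gla was high on none_crystals array 6 (6.18, others 5.02 to 5.20, ratio 0.847) and on none_none array 7 (5.51, others 4.39 to 4.53, ratio 0.874). Stab1 was low on none_crystals array 8 (9.59, others 9.91 to 9.94, ratio 0.921). On CD_none arrays, Pycard was low on number 7 (5.46, ratio 0.833), Jun high on 8 (7.52, ratio 0.8295), Timd4 low on 8 (4.43, ratio 0.939), Ndrg1 low on 9 (7.5, ratio 0.89) and Mgl2 low on 9 (4.43, ratio 0.883). On none_none arrays, Atf4 was low on number 7 (10.59, ratio 0.87), Ccl5 low on 7 (5.52, ratio 0.875) and Gclc high on 9 (4.90, ratio 0.835).

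Among the genes outside the lists, Hopx was high on CD_crystals array 9 (4.70, ratio 0.848) and on CD_none array 9 (5.02, ratio 0.903), and Ankrd33b was high on CD_none array 9 (5.36, ratio 0.856). IL8RA was high on CD_none array 7 (4.53, ratio 0.954) and EG665685 low on CD_none array 8 (6.10, ratio 0.903). Rtel1 was high on none_crystals array 7 (6.35, ratio 0.854).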

How the results depend on the processing

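The interaction in dko cells was called in 0 genes under every setting run except the high-Xist arrays alone, where limma called 1. With the replicate block it called 0 genes (345 at an unadjusted p under 0.05, smallest adjusted p 0.212), and with array weights 0 (581, smallest adjusted p 0.29). With class group means it called 0 (529, smallest adjusted p 0.268), and on low-Xist arrays alone 0 (550, smallest adjusted p 0.0831). For the CD effect in loaded cells the count of 260 became 434 with the replicate block, 2 under median scaling, 0 with the deposited matrix, 134 with no detection filter, 1495 with array weights, 596 with the Xist class as a block, 1278 with class group means, 118 on high-Xist arrays alone and 1287 on low-Xist arrays alone. In unloaded cells 247 became 444, 34 and 0 under the first 3 of these, 490 with weights, 575 with the Xist block, 1331 with class means, 86 on high-Xist and 1631 on low-Xist arrays. The crystal effect with CD (68 genes) became 29 under median scaling, 17 with the matrix, 107 with weights, 301 with class means and 145 on low-Xist arrays. Without CD (60 genes) it became 91 on the dko arrays alone, 136 with the replicate block, 107 with the slide block, 10 under median scaling, 3 with the matrix, 342 with weights, 125 with the Xist block, 532 with class means and 240 on low-Xist arrays. The genotype difference of the interaction gave 1 gene with weights, 1 with the Xist block and 1 with class means. Leaving out arrays gave 1 to 452 genes for CD in loaded cells, 6 to 424 for CD in unloaded cells, 34 to 75 for crystals with CD and 20 to 90 for crystals without. The lowest counts came without all dko arrays numbered 6 (loaded, and crystals with CD) or 7 (unloaded, and crystals without CD). The cause of these shifts was not tested.

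The cholesterol median of the interaction was -0.17 on high-Xist and -1.03 on low-Xist arrays, and -0.81 to -0.41 with arrays left out. The heat shock median was -0.19 under median scaling and -0.19 with the matrix, and -0.09 to 0.04 with arrays left out, and the lysosome median was -0.16 to 0 with arrays left out. Median scaling shifted the median of all genes to -0.10, and relative to it the cholesterol list stood at -0.69 and the fatty acid list at -0.39, against -0.66 and -0.34 in the normalization used. With the deposited matrix the median of all genes was -0.09, and relative to it these lists stood at -0.44 and -0.35. Of 578 list medians under alternatives 72 had the other sign, in 11 of 17 lists. The cholesterol, fatty acid, NRF2, stress, lysosome and iron medians were not among these. With arrays left out the NF-kB median was -0.61 to 0.72, the interferon median -0.19 to 0.60 and the inflammasome median -0.20 to 0.34. Leaving out arrays made the Xist classes unequal between the groups, and the part of the class in these shifts was not tested. With the deposited matrix the inflammasome median was -0.09 and that of hypoxia -0.06. Of 3489 values of the 103 named genes under alternatives 118 had the other sign. The labels do not pair the numbers, so the replicate block is no paired test. With 4 arrays a group, the 95% interval of an interaction reached 0.497 to either side at the median gene.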
